A study of Homo sapiens with 6 samples.

Results

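The minichromosome maintenance (MCM) helicase and the factors that load and activate it were followed in U-2 OS, a cell line from a human osteosarcoma, after depletion of SFPQ, an RNA- and DNA-binding protein. The group holds 10 genes of the 60664 in the deposited count table, namely MCM2, MCM3, MCM4, MCM5, MCM6, MCM7, CDC6, CDT1, MCM10 and CDC45, and they were taken by gene symbol matched to the Ensembl identifier. Cells carried either control siRNA (siControl) or siRNA against the SFPQ transcript (siSFPQ), both transfected at 30 nM, and each condition had 3 biological replicates. The line is labelled polyploid, and no allele or agent other than the siRNA separated the conditions. The time from transfection to RNA extraction is not given in the sources used here.

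Replication origins are licensed in G1, before any DNA is copied. The origin recognition complex (ORC) and CDC6 sit on the DNA, and CDT1 brings in the ring of MCM2 to MCM7, which is loaded in an inactive form. In S phase, CDC45 and the GINS complex join the ring to form the active CMG helicase, and MCM10 takes part in this activation. MCM10 carries the MCM name but is not a subunit of the ring. Many of these genes are known E2F targets that are transcribed towards S phase, and proliferating cells usually carry more MCM complexes than they fire.

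The libraries held between 43469321 and 47119203 counts, and the members had at least 2456 counts in every library, so that counting error was small for all of them. SFPQ was present at 22381, 23139 and 21811 normalized counts in siControl and at 3239, 3780 and 3108 in siSFPQ, for a log2 fold change of -2.73, its standard error (SE) being 0.0498, and an adjusted p of 6.33e-30. Adjusted p-values are those of the edgeR quasi-likelihood test, corrected by Benjamini-Hochberg over all genes tested. A normalized count is a count divided by the effective size of its library and scaled to the mean library. Of the osteoblast lineage markers, RUNX2, COL1A1 and SPARC were well expressed. ALPL had 128 to 195 counts in a library and COL1A2 31 to 55, whereas SP7, BGLAP and IBSP had at most 6. The effective size is the library total times its TMM scaling factor. The summed level of the 8 osteoblast markers was 5041 to 5372 CPM (a count relative to the effective library size) in siControl and 4306 to 4338 CPM in siSFPQ. This sum mainly reflects COL1A1 (means of 2909 CPM in siControl and 2279 CPM in siSFPQ) and SPARC (2222 and 1977 CPM). Both were called lower at an adjusted p under 0.05. BGLAP was called higher, at its few counts, and RUNX2, COL1A2 and ALPL were not called. SP7 and IBSP had too few counts to be tested. Epithelial markers moved with the condition as well: 3 of 4 rose (KRT8, KRT18 and CDH1), and their sum went from 328 to 344 CPM up to 727 to 796 CPM. The sum of 3 endothelial markers was 4.25 to 5.49 CPM in siControl and 6.53 to 7.33 CPM in siSFPQ, with 2 of 3 higher. The sum of 4 blood cell markers stayed under 1 CPM, with CD3E and CD68 at no more than 3 counts in any library, and PTPRC was lower. Over all genes tested, 22.1% were called lower and 22.4% higher at an adjusted p under 0.05. The part of these markers in the results below was not tested.

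E2F words were looked for in the promoters, and those of 4 members that hold them are shown. RefSeq promoter windows on GRCh38.p14, from 250 bases before to 50 bases after a transcription start, were at hand for 8 of the 10 genes, all but MCM4 and MCM5. They were searched on both strands for the E2F words TTTCCCGC, TTTGGCGC, TTTCGCGC and TTTGCCGC, which can overlap each other. At least 1 word was found in 6 of the 8 genes (75.0%), against 4.0% of the 27305 genes of the promoter table. Related genes held them as well, with 63.6% of 11 origin firing genes, 55.6% of 9 licensing regulators and 4 of 8 other G1/S genes, but 14.3% of 7 origin recognition genes, so the words are not particular to the members. MCM3 and MCM6 are printed because their transcripts had the largest falls among the members, MCM7 because its transcript was not called, and CDT1 because its transcript rose. The windows lie at chr6:52284693-52284992 (minus strand) for MCM3, chr2:135876394-135876693 (minus) for MCM6, chr7:100101348-100101647 (minus) for MCM7 and chr16:88803539-88803838 (plus) for CDT1. Each is written 5′ to 3′ on the strand of the gene, with the E2F words in capitals.
MCM3: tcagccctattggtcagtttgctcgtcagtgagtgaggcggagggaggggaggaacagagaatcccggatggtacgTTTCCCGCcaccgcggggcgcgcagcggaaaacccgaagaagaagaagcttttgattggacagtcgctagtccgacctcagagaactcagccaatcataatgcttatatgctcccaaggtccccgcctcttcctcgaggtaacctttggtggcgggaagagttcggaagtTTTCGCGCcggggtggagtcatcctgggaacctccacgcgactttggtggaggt
MCM6: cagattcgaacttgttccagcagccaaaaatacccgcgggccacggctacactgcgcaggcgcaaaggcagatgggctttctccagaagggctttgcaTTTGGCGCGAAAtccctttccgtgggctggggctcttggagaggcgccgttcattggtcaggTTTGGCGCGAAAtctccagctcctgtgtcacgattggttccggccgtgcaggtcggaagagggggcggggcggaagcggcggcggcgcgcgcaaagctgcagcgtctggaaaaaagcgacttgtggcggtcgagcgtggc
MCM7: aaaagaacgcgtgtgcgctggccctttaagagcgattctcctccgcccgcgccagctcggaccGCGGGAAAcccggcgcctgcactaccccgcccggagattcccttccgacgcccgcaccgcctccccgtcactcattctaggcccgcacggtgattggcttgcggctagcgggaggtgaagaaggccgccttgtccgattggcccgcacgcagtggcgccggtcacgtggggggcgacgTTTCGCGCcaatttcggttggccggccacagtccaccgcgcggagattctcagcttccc
CDT1: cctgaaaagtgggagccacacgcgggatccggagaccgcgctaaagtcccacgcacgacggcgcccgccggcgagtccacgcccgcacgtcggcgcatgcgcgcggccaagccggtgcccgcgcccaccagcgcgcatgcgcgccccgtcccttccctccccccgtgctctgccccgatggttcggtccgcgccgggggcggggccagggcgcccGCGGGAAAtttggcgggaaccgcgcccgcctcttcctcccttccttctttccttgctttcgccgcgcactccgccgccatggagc
Counted from the annotated start, the words of MCM3 begin at bases -174 and -4. MCM6 holds 2 runs that begin at -152 and -90, each a pair of overlapping words on opposite strands. The MCM7 window has words at -187 and -9, while the other windows of this gene have none. CDT1 has its word at -35. CDC6 (base 8 after the start) and MCM2 (bases 3 and 7) also held E2F words, whereas the windows of MCM10 and CDC45 did not. The words were thus found in genes whose transcripts fell, rose or were not called. The CCAAT box was found in 6 of the 8 genes as well, but 39.7% of all genes in the table hold one. A match describes letters in a window and is not evidence of binding.

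The first question was how the transcripts of the helicase subunits responded to the loss of SFPQ. Of the 6 subunits, 4 were lower in siSFPQ, from MCM4, which fell by 16.9%, to MCM3, which fell by 26.6%, with MCM2 and MCM6 in between, while MCM5 and MCM7 were not called. In total 5 of the 10 members fell and 1 rose at an adjusted p under 0.05. Of the 29022 genes tested, 22.1% were called lower and 22.4% higher at this threshold. Among the 10216 genes with a mean of at least 10 CPM, the shares were 38.8% and 31.4%. The members lie well above this floor, with siControl means from 54.7 CPM for CDT1 to 379 CPM for MCM7. This background is therefore not matched to their level. The share of members that fell was only somewhat above that of the genes with at least 10 CPM. None of the members passed the additional limit of 1.5 on the log2 scale, which 4.77% of all genes passed downwards and 5.54% upwards. Of the 10216 genes with a mean of at least 10 CPM, 314 passed this limit downwards and 39 upwards. In bulk RNA, fewer cells in the phase that expresses these genes and less RNA per cell cannot be told apart.

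MCM3 (chromosome 6, 52264014 to 52284881, minus strand, on GRCh38 as for all genes here) had the largest change among the members. It was measured at 12949, 13666 and 13751 normalized counts in siControl replicates 1, 2 and 3 and at 9785, 9943 and 9883 in siSFPQ. All siSFPQ values lay below all siControl values, and the spread within siSFPQ was small. The log2 fold change was -0.45 (SE 0.0366 and adjusted p = 2.69e-12), and MCM3 thus fell by 26.6%.

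MCM6 (chromosome 2, 135839626 to 135876443, minus strand), a neighbour of MCM2 in the ring, had 7225, 7481 and 7473 normalized counts in siControl against 5472, 5665 and 5649 in siSFPQ. MCM6 had a log2 fold change of -0.40 (SE 0.0376 and adjusted p = 6.35e-11). MCM2 (chromosome 3, 127598410 to 127622436, plus strand), which also binds histones through its N-terminal tail, had 6513, 6709 and 6507 in siControl and 5052, 5259 and 5280 in siSFPQ. The log2 fold change of MCM2 was -0.34 (SE 0.0382 and adjusted p = 3.85e-09). In both genes the conditions were far apart in relation to the spread between replicates.

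MCM4 (chromosome 8, 47960185 to 47978160, plus strand), which forms the catalytic core of the ring with MCM6 and MCM7, had 15074, 14983 and 14930 normalized counts in siControl. In siSFPQ it had 12062, 12659 and 12660. The 3 siControl values were almost equal and all siSFPQ values were lower, with a log2 fold change of -0.27 (SE 0.0358 and adjusted p = 1.35e-07).

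MCM5 (chromosome 22, 35400134 to 35425431, plus strand), the partner of MCM2 at the gate of the ring, had 8791, 8411 and 8245 normalized counts in siControl and 7909, 7996 and 8020 in siSFPQ. The conditions did not overlap, but the gap was close to the spread within siControl. Its log2 fold change was -0.09 (95% interval -0.17 to -0.01) with an adjusted p of 0.052 in edgeR, which misses the threshold. Without siControl replicate 3 or without siSFPQ replicate 2 the adjusted p was 0.0217 and 0.0466, and over all alternatives it ranged from 0.0174 to 0.611.

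MCM7 (chromosome 7, 100092233 to 100101940, minus strand) was the most abundant of the members, with 17446, 17143 and 17387 normalized counts in siControl and 16936, 16495 and 17191 in siSFPQ. The conditions overlapped. The log2 fold change of -0.04 (95% interval -0.11 to 0.03 and adjusted p = 0.414) had an interval above those of MCM2, MCM3, MCM4 and MCM6, and it became 0.02 when libraries were scaled by their total count alone. MCM7 shares exonic bases with AP4M1 on the opposite strand, a subunit of an adaptor complex, and hosts the microRNA genes MIR25, MIR93 and MIR106B. The strand setting of the counting is not given in the sources used here, so some reads may be assigned either way. AP4M1 had 841 ± 28.4 normalized counts in siControl and 951 ± 71.6 in siSFPQ (SD, n = 3 per condition), far fewer than MCM7, and rose by a log2 fold change of 0.18 (adjusted p = 0.0351). The rows of the 3 microRNA genes had at most 64 counts in a library and none was called. They count fragments of polyadenylated RNA and do not measure the mature microRNAs.

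**Figure D1:**
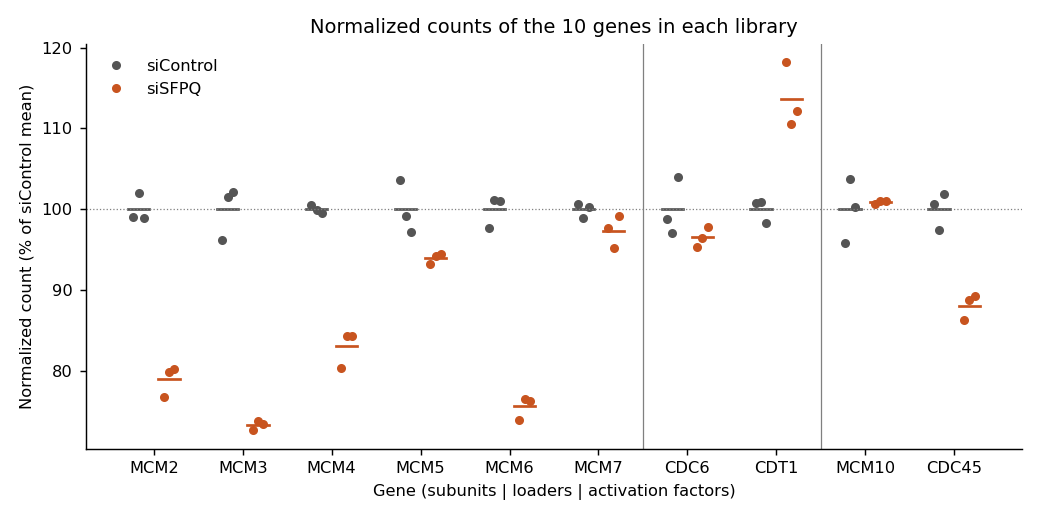
Normalized counts of each gene in each library, as a percentage of the siControl mean (y axis, which does not start at 0), with points for the 3 libraries of a condition and a line at their mean. MCM2, MCM3, MCM4, MCM5, MCM6 and CDC45 are lower in every siSFPQ library, CDT1 is higher, and MCM7, CDC6 and MCM10 overlap. MCM5 was not called at an adjusted p under 0.05 in edgeR.

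Summed over MCM2 to MCM7, normalized counts were 68228 ± 205 in siControl and 57971 ± 735 in siSFPQ (SD, n = 3 per condition), lower by 15%. Across the 10 members, the conditions did not overlap in 6 genes in the lower direction and in 1 gene in the higher direction, whereas 25.4% and 26.9% of all genes tested were separated downwards and upwards. Among genes with a mean of at least 10 CPM these shares were 41.1% and 33.7%. The median log2 fold change of the members was -0.14 and that of the 6 subunits -0.30. The same median was 0.02 over all genes tested and -0.03 over those with a mean of at least 10 CPM.

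Among the loading factors, one transcript was not called and the other rose. CDC6 (chromosome 17, 40287879 to 40304657, plus strand), the ATPase that completes the loading platform on ORC, had 6534, 6413 and 6876 normalized counts in siControl and 6300, 6376 and 6468 in siSFPQ. These ranges overlapped, with a log2 fold change of -0.05 (95% interval -0.13 to 0.03 and adjusted p = 0.312), or 0.01 under scaling by total count alone. CDT1 (chromosome 16, 88803789 to 88809258, plus strand), the chaperone of the ring during loading, had 2524, 2528 and 2463 normalized counts in siControl and 2960, 2770 and 2810 in siSFPQ. Each siSFPQ library was above each siControl library. With a log2 fold change of 0.18 (SE 0.0442 and adjusted p = 0.00079) CDT1 was the one member that rose, by 13.6%.

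Of the activation factors, CDC45 fell and MCM10 was not called. CDC45 (chromosome 22, 19479457 to 19520612, plus strand), the partner of MCM2 to MCM7 in the active helicase, had 4262, 4129 and 4315 normalized counts in siControl and 3655, 3762 and 3781 in siSFPQ. The conditions did not overlap, and the log2 fold change was -0.18 (SE 0.0402 and adjusted p = 0.000316). MCM10 (chromosome 10, 13161558 to 13211110, plus strand) had 3890, 4211 and 4071 normalized counts in siControl and 4084, 4099 and 4101 in siSFPQ. The siSFPQ values fell inside the siControl range. Its log2 fold change of 0.01 (95% interval -0.07 to 0.10 and adjusted p = 0.832) turned to -0.02 without siControl replicate 1. The lncRNA genes ENSG00000285600 and ENSG00000287652, which overlap MCM2 and CDC45 on the opposite strand, had at most 10 counts in any library.

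Levels between genes were compared as CPM per kilobase of the canonical transcript. In siControl the order ran from MCM7 (153 ± 1.43) through MCM3 (95.9 ± 3.14), MCM4 (80.7 ± 0.392) and MCM5 (53.6 ± 1.77) to CDC45 (49.3 ± 1.11), with no overlap between neighbours (SD, n = 3 per condition). MCM6 (43.1 ± 0.848) and MCM2 (41.9 ± 0.73) overlapped each other and lay above CDC6 (31.6 ± 1.15). CDT1 (20.5 ± 0.3) and MCM10 (19.5 ± 0.772) closed the order. In siSFPQ, MCM7 remained at 149 ± 3.12 while MCM3 stood at 70.3 ± 0.569, next to MCM4 at 67.0 ± 1.86. MCM6 (32.6 ± 0.621) and MCM2 (33.1 ± 0.802) were then only slightly above CDC6 (30.6 ± 0.405), and CDT1 (23.4 ± 0.821) was clear of MCM10 (19.7 ± 0.0444). A gene with transcripts of several lengths has no single length, so the order between genes is less certain than the differences between conditions.

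The ring holds 1 copy of each subunit, and the next comparison was therefore the balance of the 6 transcripts within a library, which library scaling cannot move. MCM7 made up 33.1%, 32.4% and 32.8% of the summed level per transcript length in siControl and 37.6%, 36.3% and 37.3% in siSFPQ. Its share was thus higher by 4.34 percentage points and did not overlap. MCM5 also gained, from 11.4% ± 0.41 to 12.5% ± 0.0766 (SD, n = 3 per condition). MCM3 lost most, from 20.5% ± 0.612 to 17.5% ± 0.183. MCM6 went from 9.19% ± 0.155 to 8.09% ± 0.107, MCM2 from 8.93% ± 0.146 to 8.21% ± 0.132 and MCM4 from 17.2% ± 0.131 to 16.6% ± 0.334. With the length of all exons in place of the canonical transcript, the difference for MCM4 was -0.085 percentage points instead of -0.582. In the canonical setting the shares of all 6 subunits were separated between the conditions, and the exact permutation test over libraries (two-sided) gave p = 0.1 for each, also after adjustment over the 6 shares. This is the smallest p that 3 against 3 libraries allow, and the shares depend on each other because they add up to the whole.

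**Figure D2:**
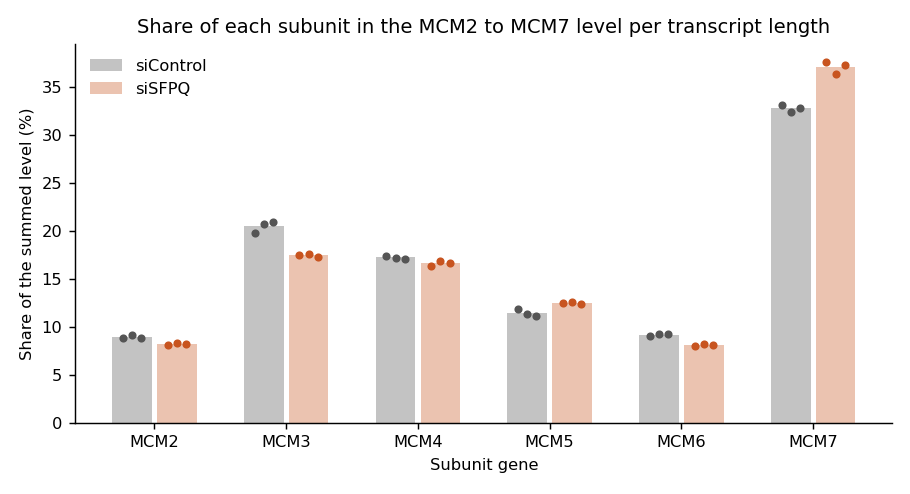
Share of each subunit gene in the summed level of MCM2 to MCM7 per transcript length (y axis, %), with bars for the mean of 3 libraries and points for the libraries. MCM7 rises from 32.8% to 37.1% on average and MCM3 drops from 20.5% to 17.5%.

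To place the members in their pathway, 4 lists with 45 further genes were followed, of which 25 fell, 6 rose and 14 were not called at an adjusted p under 0.05. These counts, and those of each list that follows, stand beside the 38.8% of genes with a mean of at least 10 CPM that were called lower and the 31.4% called higher. Of the 7 origin recognition genes, 4 rose and 1 fell, with a median log2 fold change of 0.16. LRWD1, which stabilizes ORC on chromatin, rose from a mean of 1497 ± 136 to 2074 ± 88.8 normalized counts (SD, n = 3), with a log2 fold change of 0.47 (adjusted p = 1.73e-08 in edgeR). ORC5 rose by 0.35 and ORC1, the subunit that is cell cycle regulated, by 0.16 on the log2 scale. ORC3 fell from 1753 ± 34.5 to 1328 ± 10.2 normalized counts, a log2 fold change of -0.40 (adjusted p = 5.95e-08).

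Of 10 regulators of licensing, 3 fell and 2 rose, with a median log2 fold change of -0.07. Both counts are below the shares among genes with a mean of at least 10 CPM. SKP2, a ubiquitin ligase subunit that targets CDT1, had the largest change, from 6239 ± 56.6 to 5006 ± 165 normalized counts (SD, n = 3), with a log2 fold change of -0.32. CUL4B, the scaffold of another ligase family that destroys CDT1 in S phase, fell by 0.14 on the log2 scale. KAT7, the histone acetyltransferase that acts with CDT1 at origins, rose by 0.21, and USP37, a deubiquitinase, by 0.16. Geminin (GMNN), the inhibitor of CDT1, was looked up after the values were seen. It had 1752 ± 123 normalized counts in siControl and 1876 ± 19.8 in siSFPQ and was not called (adjusted p = 0.132). The number of calls in this list depended on scaling and on single libraries. Without siSFPQ replicate 1 only 1 gene was lower, and without siControl replicate 1 or siSFPQ replicate 2 only 1 was higher.

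Of 17 origin firing factors, 14 fell and 0 rose in edgeR, with a median log2 fold change of -0.22. At an unadjusted p under 0.05 the number of rising genes was also 0, and DESeq2 called 0. GINS1 had 3216, 3173 and 3408 normalized counts in siControl and 1479, 1590 and 1524 in siSFPQ, and fell by 53.1%, with a log2 fold change of -1.09 (SE 0.0476 and adjusted p = 1.53e-19). GINS2 had 3711, 3727 and 3837 in siControl and 2089, 2245 and 2326 in siSFPQ, a log2 fold change of -0.76 (adjusted p = 6.22e-16). Both belong to the GINS complex of the CMG helicase, and their falls exceeded those of all MCM subunits and of CDC45, with 95% intervals that did not overlap. The other two GINS genes, named after their values were seen, changed less, with a log2 fold change of -0.22 for GINS4 and -0.09 for GINS3, which was not called (adjusted p = 0.203). The smallest called falls of the list were those of CDC7, the kinase that phosphorylates the loaded ring (-0.13), and of cyclin E1, CCNE1 (-0.14).

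Among 11 genes of fork progression, 7 fell and 0 rose in edgeR, and the median log2 fold change was -0.21. The number of rising genes was also 0 at an unadjusted p under 0.05 and with DESeq2. POLA1, the catalytic subunit of DNA polymerase alpha, had 2673, 2574 and 2631 normalized counts in siControl and 711, 767 and 709 in siSFPQ. Its log2 fold change of -1.85 (SE 0.0541 and adjusted p = 2.45e-24) was the only one in the 4 lists past the limit of 1.5. PRIM2, the large primase subunit of the same complex, had 3866, 3622 and 3763 in siControl and 1632, 1869 and 1840 in siSFPQ, a log2 fold change of -1.07. PRIM1, the small primase subunit, fell by 0.21 and RPA1, which coats single-stranded DNA, by 0.13 on the log2 scale.

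**Figure D3:**
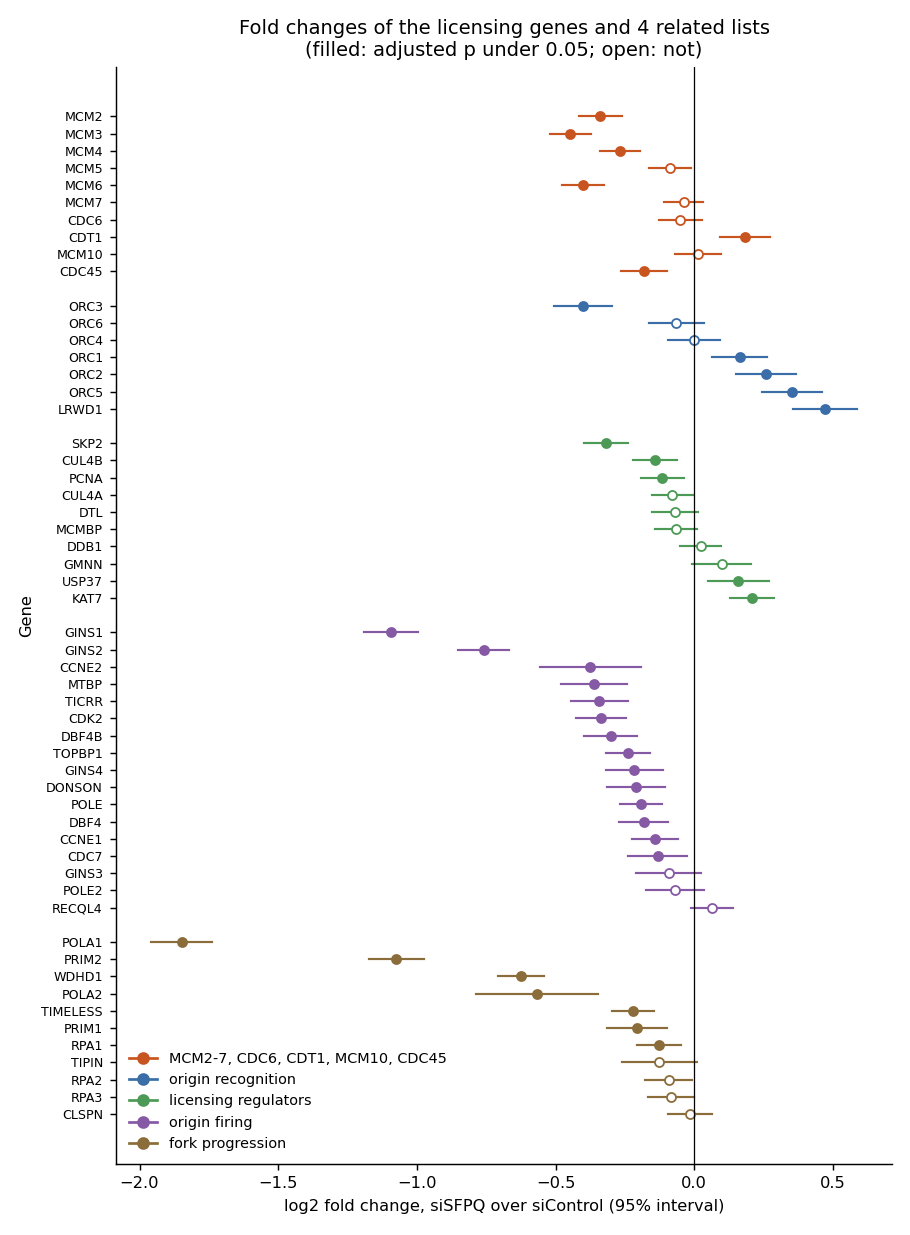
The log2 fold change of siSFPQ over siControl (x axis) with its 95% interval for the 10 members and for 4 lists of pathway genes, where filled points passed an adjusted p of 0.05 in edgeR. POLA1 (-1.85), GINS1 (-1.09) and PRIM2 (-1.07) lie far to the left of MCM3 (-0.45), and LRWD1 (0.47) is at the right end.

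Related MCM family genes outside licensing were also examined. MCM8 and MCM9, which form a separate helicase in recombination, fell by 0.29 each on the log2 scale (adjusted p = 0.000236 and 0.00172 in edgeR). HROB, which recruits this helicase, rose from a mean of 760 ± 45.5 to 1088 ± 58.8 normalized counts (SD, n = 3), with a log2 fold change of 0.52. Cell cycle genes outside the pathway were counted in the same way. Of 10 other G1/S genes, 8 fell and 0 rose (also 0 at an unadjusted p under 0.05 and with DESeq2), with a median log2 fold change of -0.36. The ribonucleotide reductase gene RRM2 fell by 1.09 and the uracil glycosylase gene UNG by 0.57, while E2F1, a transcription factor of the G1/S transition, fell by 0.25 on the log2 scale. Of 10 G2/M genes, 6 fell, from MKI67 (-0.43) and CDK1 (-0.35) to TOP2A (-0.16) and PLK1 (-0.19). None of the other 4 was called higher, although 1 was higher at an unadjusted p under 0.05 in edgeR, and DESeq2 called 0.

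Transcripts of long genes were lower in these data, and the members are short, with spans of 5.5 to 49.6 kb from start to end, introns included. This comparison was chosen after the values were seen. Among protein-coding genes of at least 10 CPM on average that span under 50 kb, 29.2% were lower, 36.9% were higher and the median log2 fold change was 0.03. For spans of 200 kb and over, 79.1% were lower and the median was -0.68. POLA1 (303.1 kb) and PRIM2 (332.0 kb) belong to this last class. Of the 4 genes over 100 kb among the members and the pathway lists, these 2 were lower. USP37 (118.1 kb) was called higher and GINS3 (111.1 kb) was not called. GINS2 (13.9 kb) lies in the class under 50 kb, like the members. GINS1 (61.7 kb) lies in the class of 50 to 100 kb, where 40.6% were lower and 30.7% higher. The members that fell lie in the class under 50 kb, in which more genes rose than fell. The part of gene span in the changes was not tested.

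**Figure D4:**
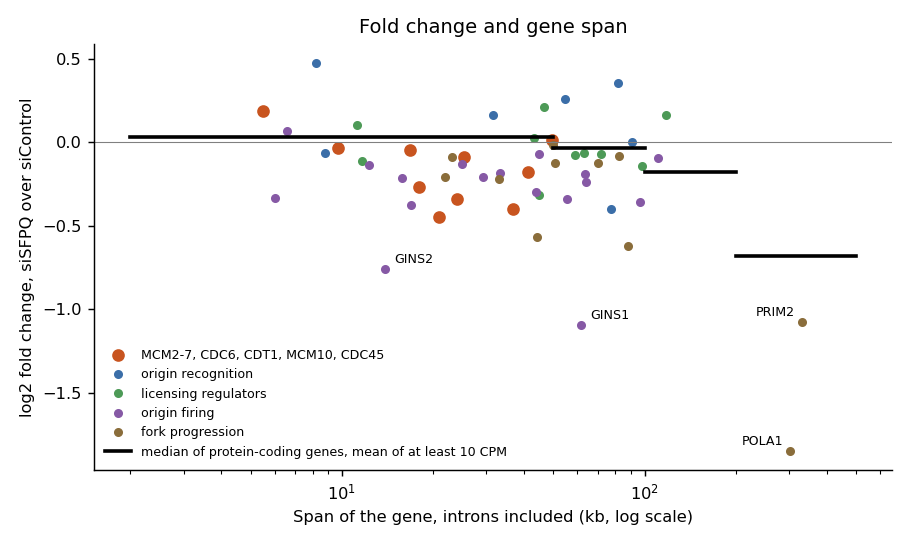
Gene span in kilobases (x axis, log scale) against the log2 fold change of siSFPQ over siControl (y axis) for the 10 members and the 4 pathway lists, with black lines at the median of protein-coding genes with a mean of at least 10 CPM in each span class. All 10 members have spans under 50 kb, whereas POLA1 and PRIM2 have spans over 300 kb.

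The genes most like the ring subunits were sought by the Pearson correlation of log2 CPM with the mean of MCM2 to MCM7 over the 6 libraries, among 10131 genes outside the lists with a mean of at least 10 CPM. The closest were APBA2, NUMB, EFEMP1, PICALM and ARHGAP42, with correlations of 0.9995 to 0.9999. All of them fell, with log2 fold changes between -1.44 for NUMB and -0.66 for PICALM, which is more than any ring subunit. The values come from the same 6 libraries in 2 conditions, so a high correlation mainly reflects a shared gap between the conditions.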

How the data were processed

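RNA from 3 siControl and 3 siSFPQ samples was sequenced from both ends with a stranded mRNA kit. The authors checked reads with FastQC, aligned them with STAR 2.7.9a to Ensembl GRCh38 and deposited raw counts per gene. The strand setting of the counting is not given in the sources used here. Library totals ranged from 43469321 to 47119203 counts. A count of 3 corresponded to at most 0.069 CPM when taken relative to the library total alone. Of the 60664 genes, 99.67% matched GENCODE release 44 (GRCh38), which gave names, spans and lengths.

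Genes with at least 10 counts in total (29022) entered a fit in edgeR 4.0.16 under R 4.3.3 (TMM, quasi-likelihood test, no covariates, Benjamini-Hochberg adjustment over all of them). Fold changes are log2 of siSFPQ over siControl. Log2 CPM for correlations had 0.01 CPM added. Members and lists were chosen with earlier results of these data known. Genes named are SFPQ, the members, genes overlapping them, the 2 lowest and 2 highest called log2 fold changes of each list, and the 5 genes most like MCM2 to MCM7, except that some genes the rule names are not reported here. Alternatives were other filters, scalings and tests (DESeq2 1.42.0), protein-coding genes only, a block on the replicate number, and each library left out. The fits were also run on simulated counts in which a small set of well-counted genes changed, as many up as down. That setting does not test the scaling between libraries. The chi-square between replicates was 3.77 to 5.49 per degree of freedom, so every pair differed by more than sampling noise.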

Additional observations from a re-analysis of the deposited data

How the results depend on the processing

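Over 13 alternatives for each of the 10 members, 122 of 130 log2 fold changes kept their direction and their side of an adjusted p of 0.05, including all of those of MCM2, MCM3, MCM4, MCM6, CDC45 and CDT1. The number of members called lower ranged from 5 to 6 and the number called higher was 1 throughout. MCM5 passed the threshold with at least 1 count in total as the filter (-0.10, adjusted p = 0.0307) and with the replicate block (-0.089, adjusted p = 0.0174), and its log2 fold change ranged from -0.109 to -0.062 with single libraries left out. Same-numbered libraries correlated at 0.034, 0.193 and 0.105 in their deviations from the condition means, so the numbers were not taken as pairs, although each library correlated best with its own number except siControl replicate 1 (0.056 with siSFPQ replicate 3) and siSFPQ replicate 1 (0.035 with siControl replicate 3). With the block, 6424 genes were lower and 6530 higher, against 6421 and 6514 without it. Under scaling by library size alone, MCM7 (0.025) and CDC6 (0.013) changed sign without being called, 1 licensing regulator was lower and 4 were higher, and 1 origin firing gene and 2 G2/M genes were higher. This scaling moved the median of all genes by 0.063. MCM10 lay between -0.016 and 0.041 with single libraries left out, and -0.002 without siSFPQ replicate 2. With single libraries left out, 1 to 4 licensing regulators were lower and 1 to 3 higher. Under filterByExpr, the replicate block and protein-coding genes only, 1 G2/M gene was higher. With the length of all exons in place of the canonical transcript, a choice made after seeing the data, the difference in share was -0.085 percentage points for MCM4 and -1.31 for MCM6. The cause of these shifts was not tested. With 3 libraries per condition, differences such as that of MCM5 are at the limit of what the spread between replicates resolves.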
